A study of Mus musculus with 8 samples.

Results

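The genes described here are 31 genes of the pathway of the sterol regulatory element binding proteins (SREBPs). They cover sterol and fatty acid synthesis, sterol transfer and regulators of the pathway, and were measured after knockdown of DOR in C2C12 cells. They were given as a list of gene names, 17 of the sterol branch, 9 of the fatty acid branch and 5 regulators that serve both. All 31 had at least 1 probe set annotated with their symbol alone, so none was skipped, and together they had 73 of the 45037 probe sets tested. A gene's values are those of its brightest probe set, the one with the largest average across arrays, and 18193 genes could be represented in this way.

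C2C12 is an established mouse myoblast line that can differentiate into myotubes. The 4 control cultures had been infected with lentivirus encoding scrambled RNA, and the 4 knockdown cultures with lentivirus encoding siRNA that targets DOR. DOR is the protein made from Trp53inp2, a known cofactor of nuclear receptors and of autophagosome formation. All 8 cultures shared the lentiviral infection at an moi of 100, an expansion of 5 to 7 days, sorting for GFP to 93 to 99% positive cells, and 4 days in medium containing 5% horse serum, as the protocols in the labels state. Other labels name confluent myoblasts, so the stage at harvest is not settled, and none states how the replicate cultures were derived, so the p-values cover the spread between these cultures only.

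SREBPs are transcription factors made as precursors in the membrane of the endoplasmic reticulum. When sterols are scarce, SCAP escorts them to the Golgi, where proteases release the active part. INSIG proteins hold SCAP back when sterols are plentiful. SREBP-2, from Srebf2, acts mainly on cholesterol synthesis, and SREBP-1, from Srebf1, mainly on fatty acid synthesis. In muscle cells these pathways supply membrane lipids, and both branches are also under other lipid-sensing controls. Transcript levels of the SREBP genes do not measure the processed, active proteins.

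Levels are log2 values after RMA normalisation, and a gene was called when its moderated limma test gave an adjusted p under 0.05 over all probe sets. Differences are DOR siRNA minus scrambled, with the standard error after ± unless SD is named. Trp53inp2 itself fell in the knockdown, with no overlap between groups. The brighter probe set of Trp53inp2 had a mean of 11.35 ± 0.29 log2 units in the scrambled cultures and 9.51 ± 0.31 in the knockdown (SD, n = 4 each), a 3.56-fold decrease (limma adjusted p = 0.00087). Its dimmer probe set had a difference of 0.14 ± 0.08 (SE). Myogenic markers gave mean levels of 12.19 to 12.44 log2 units per scrambled array and 12.04 to 12.36 per knockdown array over all 6 (Myod1, Myog, Des, Myf5, Ckm and Acta1), and 0 of 6 passed the limma test with the group alone. At an unadjusted p under 0.05, 3 were lower (Myog, Ckm and Acta1) and 1 higher (Myf5), and Ckm (lower) and Myf5 (higher) passed in the fit with the replicate block. Among markers of other cells, 0 of 5 adipocyte markers passed with the group alone, and their mean level per array was 5.04 to 5.36 in the scrambled and 5.32 to 5.55 in the knockdown arrays. Adipoq lay between 2.95 and 3.44 on all 8 arrays, and the means of Fabp4, Lep and Pparg differed by -0.01, 0.06 and 0.04. Cebpa, a transcription factor of the adipocyte program, read 6.73, 7.33, 7.36 and 7.21 in the scrambled and 7.87, 8.93, 7.82 and 7.63 in the knockdown arrays. Its groups did not overlap (0.91 ± 0.25, limma adjusted p = 0.080), and in the fit with the replicate block Cebpa passed (limma adjusted p = 0.022). Macrophage and hepatocyte markers gave mean levels of 5.29 to 5.48 and 6.28 to 6.61 over the 8 arrays, with none called. Contractile markers fell for 5 of 6, with mean levels of 11.24 to 11.73 in the scrambled and 9.96 to 10.48 in the knockdown arrays. Ttn, the other one, was lower and passed with the block (limma adjusted p = 0.055 with the group alone and 0.0074 with the block). Proliferation markers rose for 3 of 4 measured, with 9.63 to 9.96 in the scrambled and 10.22 to 10.48 in the knockdown arrays. Their part in the lipid gene results was not tested, and in bulk RNA fewer cells of a kind and less RNA per cell cannot be told apart.

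A pair of arrays stood apart in ways that touch the lipid genes. Scrambled 4 had the highest value of the scrambled arrays for 12 of the 17 sterol genes, against 30.7% of all genes, and for 4 of 9 fatty acid genes. DOR siRNA 2 had a wider gap between the 3' and 5' control probe sets for actin, Gapdh, pyruvate carboxylase and the transferrin receptor (mean gap 0.97 log2 units, against 0.51 to 0.72 on the other 7 arrays). It was also the lowest knockdown array for 22 of the 42 further probe sets of the lipid genes (52.4%, against 34.4% of all probe sets tested). The same held for 15 of the 31 brightest probe sets (48.4%), which give the main values. By brightest probe set DOR siRNA 2 was the highest knockdown array for 6 of 9 fatty acid genes and 3 of 5 regulators. It was the highest for 0 of 17 sterol genes, against 6007 of all 18193 genes. Leaving out one or the other moved the difference by over 1.5 times for 18 of the 31 genes, and those values are given with the genes. Scrambled 4 was singled out by its high values in sterol genes. Where it is the highest scrambled array, an upward move of the difference without it is built into that choice. The replicate numbers of the labels were taken as pairing the cultures (the paired fit), and values from that fit are given where they change a call. The labels do not state a shared batch. After group means were subtracted, only 5 of the 8 arrays correlated best with their own number, so the pairing is an assumption.

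Few single genes of the pathway passed the test. Of the 31 genes, Elovl6 rose and Dhcr7 fell at a limma adjusted p under 0.05, and 29 did not pass. The background over all 18193 genes was 4.56% called in either direction, 3.11% called higher and 1.45% called lower, so 2 of 31 is close to that background. Differences above 0 were found for 25 of the 31, against 54.9% of all genes. The median difference (DOR siRNA minus scrambled, log2) was 0.20 over the 31 genes and 0.02 over all genes. Without DOR siRNA 2 the median over the 31 genes was 0.14, and without scrambled 4 it was 0.22. In the paired fit 6 genes rose (Sqle, Lss, Stard4, Fasn, Elovl6 and Fads2) and 1 fell (Dhcr7), where the background was 8.25% called, 5.1% higher and 3.16% lower. Without scrambled 4, 7 rose (Hmgcs1, Idi1, Lss, Stard4, Acly, Fasn and Elovl6) and Dhcr7 fell, against 4.33% and 2.63% (6.96% in all). The added calls are not independent of the choice of that array. With scrambled 1, 2 or 3 left out instead, 0 sterol genes were called. Without DOR siRNA 2, Elovl6 and Fads2 rose and Dhcr7 fell, against 2.61% and 1.53% (4.14% in all). Over all probe sets 3.22% were called with the group alone and 6.28% in the paired fit.

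**Figure D1:**
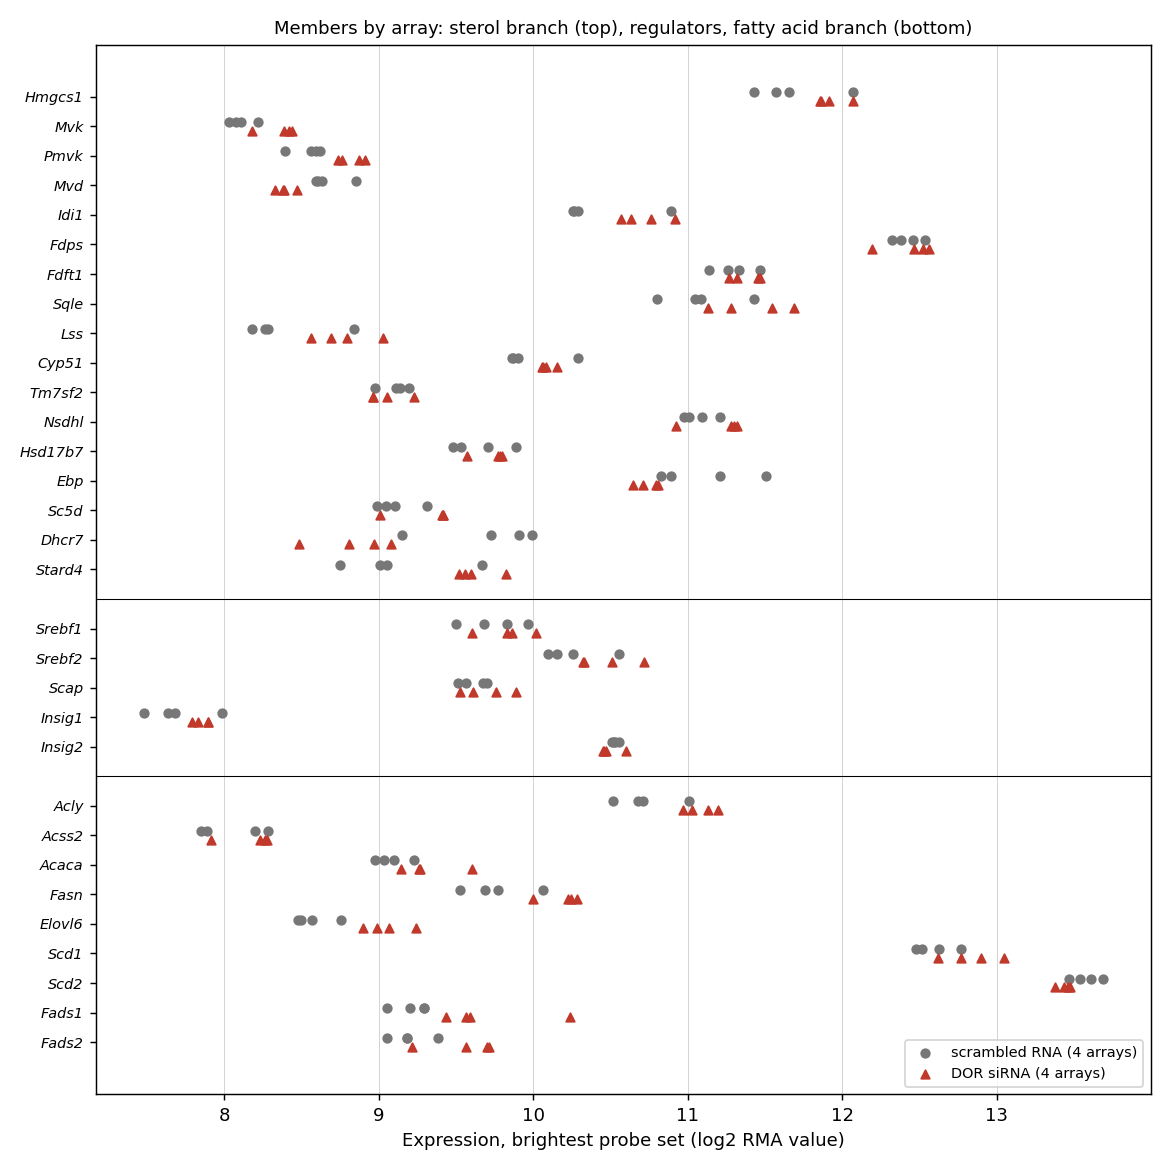
Log2 expression of each of the 31 genes on each array (horizontal axis, log2 RMA value of the brightest probe set), grey circles for the 4 scrambled arrays and red triangles for the 4 DOR siRNA arrays, with sterol genes at the top, regulators in the middle and fatty acid genes at the bottom. The groups were fully separated for 6 genes (Pmvk, Elovl6 and Fads1 higher, and Mvd, Ebp and Dhcr7 lower), and 1 grey circle stood to the right of the other 3 in many sterol genes. Over all 18193 genes 12.2% were fully separated, 8.1% with the knockdown above and 4.13% with it below.

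The sterol branch moved in no single direction. Of its 17 members Dhcr7 fell, none rose, and 16 missed the limma threshold, with an unadjusted p under 0.05 for 4 that lay higher and 3 that lay lower (11.5% and 6.55% of all genes). The median difference was 0.13, and 13 of 17 differences were above 0. The groups did not overlap for 4 members, 1 with the knockdown above (Pmvk) and 3 with it below (Mvd, Ebp and Dhcr7). Over all genes 8.1% were fully above and 4.13% fully below. Averaged over the 17 members, the knockdown arrays were shifted from the scrambled mean by 0.08 ± 0.09 (SD, n = 4), and the scrambled arrays had an SD of 0.12. That SD came from scrambled 4, at 0.18, with the other 3 scrambled arrays at -0.03, -0.09 and -0.07. Of the knockdown arrays DOR siRNA 1, 3 and 4 lay above those 3, at 0.11, 0.08 and 0.16, and DOR siRNA 2, at -0.04, lay among them. The median difference of the branch was 0.21 without scrambled 4 and 0.23 without DOR siRNA 2.

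Dhcr7 encodes the reductase that turns 7-dehydrocholesterol into cholesterol, the last step of one route of synthesis. Its values were 9.91, 9.99, 9.73 and 9.15 log2 units in scrambled 1 to 4 and 9.08, 8.97, 8.80 and 8.48 in DOR siRNA 1 to 4. Every knockdown value was below every scrambled one, and replicate 4 was the lowest of both groups, unlike the 12 sterol genes in which scrambled 4 was the highest scrambled array. Scrambled 4 was also the lowest scrambled array for Mvk (8.03) and Pmvk (8.40). Dhcr7 fell 1.82-fold (log2 difference -0.86 ± 0.18 SE, limma adjusted p = 0.030), and was lower in 4 of 4 same-numbered pairs, by 0.67 to 1.02. It had the largest difference of the 31 genes in either direction and has 1 probe set. The paired fit gave an adjusted p of 0.0018. Leaving out any of scrambled 1 to 3, DOR siRNA 3 or DOR siRNA 4 ended the call (limma adjusted p from 0.062 to 0.10), while the difference stayed between -1.04 and -0.74 whichever array was left out.

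Steps early in the pathway, from acetyl units to isoprenoids, lay mostly higher without passing the test. Hmgcs1, the synthase that makes HMG-CoA, read 11.65, 11.43, 11.57 and 12.07 in the scrambled and 11.87, 11.86, 11.91 and 12.07 in the knockdown arrays. Its knockdown values all lay above scrambled 1 to 3, and the highest of them matched scrambled 4 (difference 0.24 ± 0.13, limma adjusted p = 0.40, and 0.37 ± 0.09 with limma adjusted p = 0.043 without scrambled 4). The other 4 probe sets of Hmgcs1 differed by 0.16 to 0.32, none called.

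The kinases Mvk and Pmvk phosphorylate mevalonate in succession. Pmvk read 8.56, 8.62, 8.60 and 8.40 against 8.91, 8.87, 8.73 and 8.76, with no overlap (0.28 ± 0.08, limma adjusted p = 0.096). Mvk differed by 0.25 ± 0.08 (limma adjusted p = 0.15), and by 0.12 ± 0.10 in its second probe set (limma adjusted p = 0.65). Mvd, the decarboxylase of the next step, went the other way without overlap. It read 8.60, 8.59, 8.63 and 8.85 in the scrambled and 8.39, 8.33, 8.38 and 8.47 in the knockdown arrays (-0.28 ± 0.08, limma adjusted p = 0.097). In the second probe set of Mvd the groups overlapped, with 1 pair higher and 3 lower (-0.22 ± 0.11, limma adjusted p = 0.38). By their brightest probe sets Mvk, Pmvk and Mvd therefore had differences of like size and unlike sign along consecutive steps, none past the threshold over all genes.

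Idi1, the isomerase that makes dimethylallyl diphosphate, read 10.29, 10.26, 10.26 and 10.89 in the scrambled and 10.76, 10.57, 10.64 and 10.92 in the knockdown arrays. Scrambled 4 lay far above the other 3 scrambled arrays and inside the knockdown range. The difference was 0.29 ± 0.14 with all arrays (limma adjusted p = 0.36) and 0.45 ± 0.10 without scrambled 4 (limma adjusted p = 0.025). Fdps, the farnesyl diphosphate synthase, differed by 0.01, with a 95% interval of -0.20 to 0.22, and Fdft1, squalene synthase, by 0.08 (-0.12 to 0.28). Without scrambled 4 Fdft1 differed by 0.14, and without DOR siRNA 2 Fdps differed by 0.10.

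Squalene is oxidised by Sqle and cyclised to lanosterol by Lss. Sqle read 11.05, 10.80, 11.08 and 11.43 against 11.28, 11.13, 11.54 and 11.69, so the groups overlapped, although each knockdown culture was above its same-numbered control by 0.24 to 0.46 (0.32 ± 0.15, limma adjusted p = 0.33; paired adjusted p = 0.040). Lss read 8.18, 8.28, 8.26 and 8.84 against 8.69, 8.56, 8.80 and 9.03, again higher in 4 of 4 pairs (0.38 ± 0.15, limma adjusted p = 0.24; paired adjusted p = 0.036; 0.53 ± 0.11 without scrambled 4, limma adjusted p = 0.024). For both genes the pair numbered 4 was the highest of its group.

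From lanosterol onward no enzyme but Dhcr7 passed in any fit that was run. Cyp51, the 14-alpha-demethylase, differed by 0.11 ± 0.10, the sterol reductase Tm7sf2 by -0.05 ± 0.09, Nsdhl by 0.13 ± 0.10 and Hsd17b7 by 0.08 ± 0.10, the last pair acting in C-4 demethylation. Sc5d, the lathosterol desaturase just before Dhcr7, differed by 0.20 ± 0.11, with an adjusted p of 0.46 in limma for its brightest and 0.077 for its second probe set (0.31 ± 0.08). Ebp, the sterol isomerase before Sc5d, read 10.89, 10.83, 11.21 and 11.51 against 10.80, 10.64, 10.71 and 10.81. Those groups did not overlap, but the scrambled arrays were spread widely (SD 0.31) and Ebp did not pass (-0.37 ± 0.14, limma adjusted p = 0.20). Without scrambled 4 the differences were -0.24 for Ebp, 0.21 for Cyp51 and 0.16 for Hsd17b7. Without DOR siRNA 2 they were 0.23 for Nsdhl, 0.13 for Hsd17b7, 0.30 for Sc5d and -0.02 for Tm7sf2, and none of these passed.

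Stard4 encodes a soluble protein that carries sterols between membranes. It read 9.05, 8.75, 9.01 and 9.67 in the scrambled and 9.56, 9.60, 9.52 and 9.82 in the knockdown arrays. All knockdown values lay above scrambled 1 to 3, and 3 of them below scrambled 4. The difference was 0.50 ± 0.17 (limma adjusted p = 0.14), the paired limma adjusted p was 0.028, and without scrambled 4 it was 0.69 ± 0.11 (limma adjusted p = 0.0075). The 2 further probe sets of Stard4 differed by 0.47 ± 0.12 (limma adjusted p = 0.0545, and 0.012 in the paired fit) and 0.30 ± 0.26, the latter with DOR siRNA 2 at 8.18 and the other knockdown arrays at 9.02 to 9.48.

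**Figure D2:**
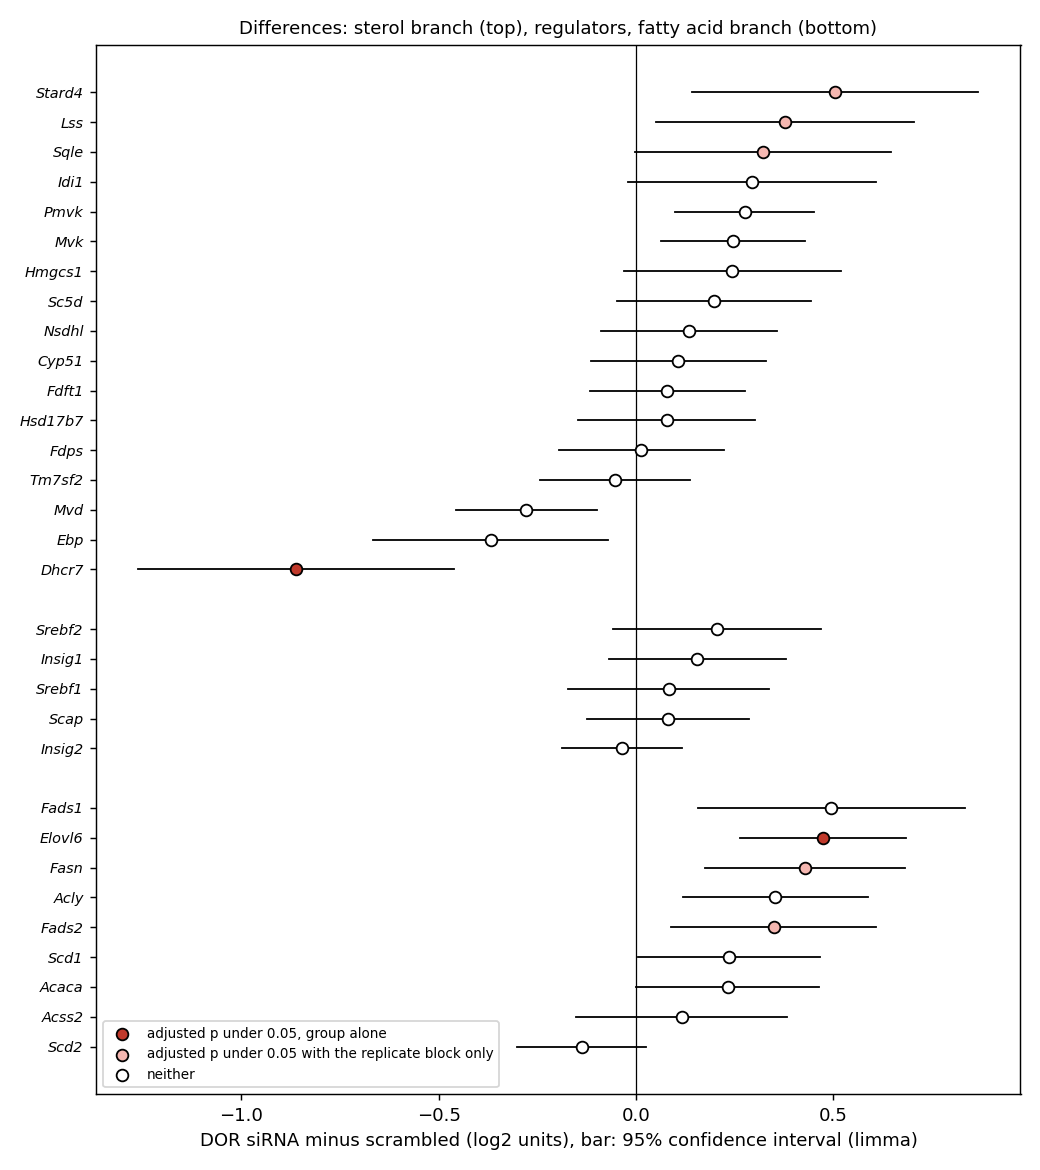
Difference between DOR siRNA and scrambled arrays (horizontal axis, log2 units) for each of the 31 genes, with the limma 95% confidence interval as a bar, sorted within each group of genes. Dhcr7 (-0.86) and Elovl6 (0.47) are filled as called with the group alone, 5 genes are pale because they passed in the paired fit only, and 8 of the 9 fatty acid genes lie to the right of 0.

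The fatty acid branch lay higher as a group of values, with 1 gene past the test. Elovl6 rose, none of the 9 members fell, and 8 missed the threshold, while 7 were higher at an unadjusted p under 0.05, against 11.5% of all genes. The median difference was 0.35, and it ran from 0.28 to 0.41 when any single array was left out. Knockdown was higher in 4 of 4 same-numbered pairs for 7 of 9 members, against 18.1% of all genes. The mean shift over the 9 members was 0.22, 0.39, 0.26 and 0.26 in DOR siRNA 1 to 4 and 0.04, -0.09, -0.01 and 0.06 in scrambled 1 to 4, with no overlap. When the probe sets of a gene were averaged, the median over the 9 genes was 0.18. The difference between the branches was not tested.

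**Figure D3:**
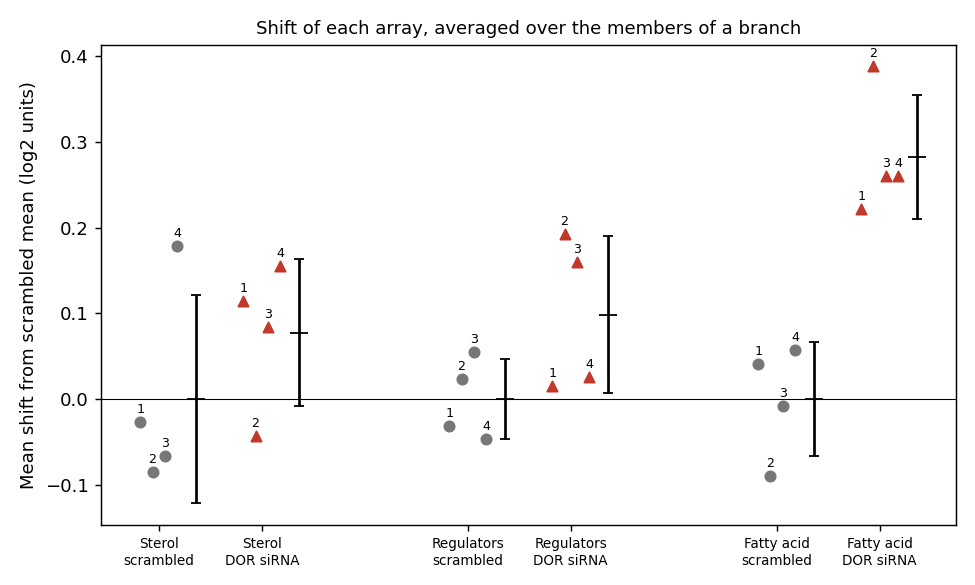
Shift of each array from the mean of the scrambled arrays, averaged over the genes of a branch (vertical axis, log2 units), with replicate numbers beside the points and mean ± SD (n = 4) as a bar to the right. The knockdown arrays of the fatty acid branch lie between 0.22 and 0.39, above all scrambled arrays, whereas in the sterol branch scrambled 4, at 0.18, is the highest of the 8.

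Acetyl-CoA for both branches comes from citrate through Acly and from acetate through Acss2. Acly read 10.68, 10.51, 10.71 and 11.01 in the scrambled and 10.97, 11.20, 11.03 and 11.13 in the knockdown arrays, where scrambled 4 alone reached into the knockdown range (0.35 ± 0.11, limma adjusted p = 0.11, and 0.45 ± 0.09 with limma adjusted p = 0.021 without scrambled 4). Its further probe sets differed by 0.34, 0.17, -0.12, 0.01 and 0.08, none called. In the mean over its 6 probe sets Acly differed by 0.14 (limma adjusted p = 0.32). Acss2 differed by 0.12 ± 0.12, with an interval of -0.15 to 0.38, and by 0.06 without scrambled 4. Acaca, the carboxylase that makes malonyl-CoA and commits carbon to fatty acids, differed by 0.23 ± 0.10 (limma adjusted p = 0.32) and was highest in DOR siRNA 2. Without that array Acaca differed by 0.14, and in the mean over its probe sets by 0.04. Its second probe set read 5.32 in DOR siRNA 2 and 6.50 to 6.80 in the other knockdown arrays.

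Fasn, the synthase that builds palmitate, read 9.69, 9.52, 9.77 and 10.06 against 10.00, 10.29, 10.22 and 10.25. It was higher in 4 of 4 pairs, and the groups overlapped only through scrambled 4, which lay above DOR siRNA 1. Fasn differed by 0.43 ± 0.12 (1.34-fold, limma adjusted p = 0.073), with a paired adjusted p of 0.041 and 0.53 ± 0.10 without scrambled 4 (limma adjusted p = 0.015).

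Elovl6 elongates palmitate to stearate. Its values were 8.76, 8.48, 8.50 and 8.57 in scrambled 1 to 4 and 8.99, 9.24, 8.90 and 9.07 in DOR siRNA 1 to 4. The groups did not overlap, and DOR siRNA 2 was highest. Elovl6 rose 1.39-fold (0.47 ± 0.10, limma adjusted p = 0.025; paired adjusted p = 0.022). Leaving out any of scrambled 2, scrambled 3, DOR siRNA 1 or DOR siRNA 4 ended the call (limma adjusted p from 0.054 to 0.082). It was also lost in the mean over its 3 probe sets (0.25, limma adjusted p = 0.094), 1 of which, at about 5.3 log2 units, differed by -0.03.

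The stearoyl-CoA desaturases Scd1 and Scd2 introduce the first double bond, and their differences had unlike signs. Scd1 read 12.52, 12.48, 12.63 and 12.77 against 12.62, 12.77, 12.90 and 13.05 (0.24 ± 0.10, limma adjusted p = 0.31). Its second probe set differed by 0.13 ± 0.23, with DOR siRNA 2 at 10.15 and the other knockdown arrays at 10.89 to 11.44. Without that array the second probe set differed by 0.39, not called. Scd2 read 13.61, 13.47, 13.69 and 13.54 against 13.38, 13.48, 13.46 and 13.43 (-0.14 ± 0.07, limma adjusted p = 0.43). The other 2 probe sets of Scd2 differed by -0.28 ± 0.10 and -0.65 ± 0.30. In both, every knockdown value was below every scrambled one, and neither was called (limma adjusted p = 0.17 and 0.33). The latter probe set, with DOR siRNA 2 at 9.72 and the other knockdown arrays at 11.26 to 11.31, came to -0.26 without that array. Scd1 and Scd2 are close paralogs, and cross-hybridisation between them was not tested.

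Fads1 and Fads2 are the front-end desaturases of polyunsaturated fatty acids. Fads1 read 9.30, 9.20, 9.29 and 9.06 in the scrambled and 9.59, 10.24, 9.56 and 9.43 in the knockdown arrays, without overlap. Its size leaned on DOR siRNA 2, with 0.50 ± 0.15 (limma adjusted p = 0.12) on all arrays and 0.32 without DOR siRNA 2 (limma adjusted p = 0.087). The second probe set of Fads1 differed by 0.08 ± 0.11 (limma adjusted p = 0.83). Fads2 read 9.18, 9.05, 9.19 and 9.38 against 9.70, 9.22, 9.56 and 9.72. There DOR siRNA 2 was the lowest knockdown array and lay inside the scrambled range. Fads2 differed by 0.35 ± 0.12 (limma adjusted p = 0.16), with a paired adjusted p of 0.040 and 0.46 without DOR siRNA 2 (limma adjusted p = 0.029). In the mean over its 3 probe sets Fads2 passed (0.34, limma adjusted p = 0.019). In the second probe set of Fads2 the knockdown values were 8.98, 9.40, 8.95 and 9.10, all above the scrambled 8.55, 8.29, 8.78 and 8.74 (0.52 ± 0.13, limma adjusted p = 0.0545).

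**Figure D4:**
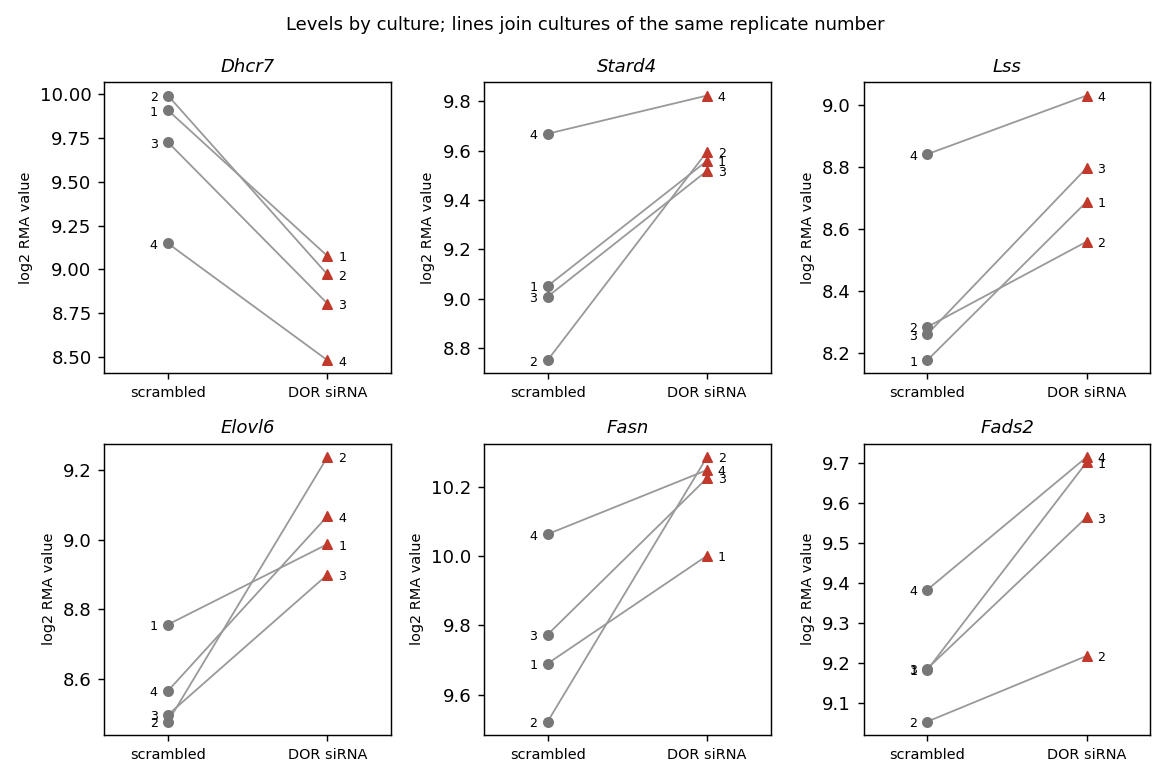
Log2 levels of 6 genes in scrambled and DOR siRNA cultures (vertical axes, log2 RMA values on separate scales that do not start at 0), with lines joining cultures of the same replicate number. All 4 lines fall for Dhcr7 and rise for the other 5 genes, and culture pair 4 starts highest for Stard4, Lss, Fasn and Fads2 but lowest for Dhcr7.

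The regulators showed no call. None of the 5 passed the limma test, in the paired fit or without any single array, and 0 had an unadjusted p under 0.05. Srebf1 read 9.83, 9.96, 9.68 and 9.50 against 9.83, 9.86, 10.02 and 9.60 (0.08, 95% interval -0.17 to 0.34). Srebf2 read 10.26, 10.15, 10.56 and 10.10 against 10.33, 10.72, 10.51 and 10.33 (0.21, -0.06 to 0.47). The groups of Srebf1 overlapped widely, while those of Srebf2 overlapped through scrambled 3 alone, the other 3 scrambled arrays lying below every knockdown array. The second probe set of Srebf2 did not show this. It differed by 0.05 ± 0.10, was higher in 2 same-numbered pairs and lower in 2, and its groups overlapped. Srebf1 differed by 0.0016 without scrambled 4, and Srebf2 by 0.12 without DOR siRNA 2. Scap differed by 0.08 (-0.12 to 0.29), by 0.05 without scrambled 4 and by 0.02 without DOR siRNA 2.

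Insig1 is itself a classic SREBP target as well as a brake on the pathway. It read 7.48, 7.64, 7.68 and 7.98 in the scrambled and 7.79, 7.89, 7.89 and 7.83 in the knockdown arrays, so again scrambled 4 was the highest of the 8 (0.15, -0.07 to 0.38, and 0.25 without scrambled 4, not called). Insig2 read 10.51 to 10.56 in the scrambled arrays and 10.45 to 10.60 in the knockdown, with a difference of -0.03 (-0.19 to 0.12, and -0.02 without DOR siRNA 2).

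The promoter sequences were taken from RefSeq (GRCm38.p6), from 250 bases before to 50 after each annotated start, where 24 of the 31 genes matched with 32 starts; Fads1, Fdft1, Fdps, Scd1, Scd2, Sqle and Stard4 had no entry and are named only. CCAAT boxes, bound by NF-Y, the usual partner of SREBPs, were searched as the letters CCAAT on either strand. They were in 21 of 32 promoters (65.6%), against 37.4% of all 32851 promoters. By gene they were in 13 of 13 sterol genes, 4 of 5 regulators and 3 of 6 fatty acid genes, against 41.1% of all genes in the table. The E-box CACGTG was in 6 of 32 (18.8%), against 7.15%. Scap counts more than once there, because its overlapping windows hold the same site. By gene the E-box was in 3 of 13 sterol genes, 2 of 5 regulators and 0 of 6 fatty acid genes, against 8.09% of all genes. One consensus form of the sterol regulatory element, with a free base, was in 0 of 32, against 0.234%. No match says only that these letters are not in this window. None of the motifs contains another.

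To show these letters in the called genes and in every gene with an entry that was called in the paired fit or without scrambled 4 or DOR siRNA 2, the 150 bases before the start are given 5′ to 3′ on the gene's strand, with CCAAT boxes of either orientation in capitals. Dhcr7 has 3 listed starts, of which the one shown carries boxes and the other 2 do not. Elovl6 and Fads2 have none in their windows, and the single box of Acly lies after its start, outside the stretch shown. In these stretches Fasn has 3, 2 of them overlapping, Lss and Hmgcs1 have 1 each and Idi1 has 2.
Dhcr7 promoter (chr7:143830064-143830213, plus strand): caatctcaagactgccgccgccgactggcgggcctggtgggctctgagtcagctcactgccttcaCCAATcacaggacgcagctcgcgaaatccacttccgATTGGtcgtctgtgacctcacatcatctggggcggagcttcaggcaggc
Elovl6 promoter (chr3:129532236-129532385, plus strand): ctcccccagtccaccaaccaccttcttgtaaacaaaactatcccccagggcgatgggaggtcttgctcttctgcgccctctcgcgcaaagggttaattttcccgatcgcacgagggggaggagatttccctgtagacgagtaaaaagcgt
Fasn promoter (chr11:120824548-120824697, minus strand): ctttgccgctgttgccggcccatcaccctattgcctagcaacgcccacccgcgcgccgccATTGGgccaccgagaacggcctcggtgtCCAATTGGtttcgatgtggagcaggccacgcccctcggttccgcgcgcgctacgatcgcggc
Fads2 promoter (chr19:10101504-10101653, minus strand): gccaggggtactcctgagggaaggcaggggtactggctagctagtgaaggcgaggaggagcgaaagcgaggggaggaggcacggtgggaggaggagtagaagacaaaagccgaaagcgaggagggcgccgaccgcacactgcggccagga
Acly promoter (chr11:100528001-100528150, minus strand): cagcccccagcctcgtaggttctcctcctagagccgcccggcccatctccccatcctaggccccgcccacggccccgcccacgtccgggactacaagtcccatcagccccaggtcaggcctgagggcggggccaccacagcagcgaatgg
Lss promoter (chr10:76531455-76531604, plus strand): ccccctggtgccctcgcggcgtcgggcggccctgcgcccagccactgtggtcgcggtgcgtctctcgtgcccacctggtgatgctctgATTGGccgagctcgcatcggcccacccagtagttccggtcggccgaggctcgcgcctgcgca
Idi1 promoter (chr13:8885456-8885605, plus strand): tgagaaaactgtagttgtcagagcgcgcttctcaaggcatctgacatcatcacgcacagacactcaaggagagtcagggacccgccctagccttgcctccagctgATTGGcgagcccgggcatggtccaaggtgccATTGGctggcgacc
Hmgcs1 promoter (chr13:119690201-119690350, plus strand): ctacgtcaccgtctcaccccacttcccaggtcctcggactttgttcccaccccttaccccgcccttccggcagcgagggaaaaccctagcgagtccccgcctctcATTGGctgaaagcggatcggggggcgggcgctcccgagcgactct
The genes called with the group alone thus include 1 with boxes at 1 of its starts (Dhcr7, lower) and 1 without (Elovl6, higher), and a match is a description of letters, not of binding.

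Related genes of sterol and lipid handling were listed beside the 31, and 31 of 36 were measured by a single-symbol probe set. Of these 4 rose and 1 fell at a limma adjusted p under 0.05, and 26 did not pass, with a median difference of 0.06. Over all genes 3.11% were called higher and 1.45% lower, and the median difference was 0.02. This list was chosen with earlier results of these data known, so its count is not independent of them. Slc25a1, the mitochondrial citrate carrier that feeds Acly, read 8.67, 8.68, 8.68 and 8.62 against 9.30, 9.45, 9.18 and 9.09 and rose 1.51-fold (0.59 ± 0.09, limma adjusted p = 0.0061). Every knockdown value was above every scrambled one, and Slc25a1 kept its call whichever array was left out. Erlin2, an endoplasmic reticulum protein known to bear on INSIG and SREBP turnover, read 9.79, 9.74, 10.00 and 9.93 against 9.05, 9.20, 9.17 and 9.11, without overlap. Erlin2 fell 1.66-fold (-0.73 ± 0.08, limma adjusted p = 0.0016) and also kept its call without any single array.

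The sterol exporters Abca1 and Abcg1, targets of the liver X receptors, rose too. Abca1 read 5.80, 5.89, 5.79 and 6.32 against 6.69, 6.82, 6.53 and 6.33 (0.64 ± 0.14, limma adjusted p = 0.031). Its scrambled mean of 5.95 was dimmer than the median probe set (6.18), and in the mean over its 3 probe sets Abca1 differed by 0.27 (limma adjusted p = 0.071). Abcg1 (0.55 ± 0.13, limma adjusted p = 0.045) is named after its values were seen. Me1, the malic enzyme that supplies NADPH, rose by 0.34 ± 0.08 (limma adjusted p = 0.036). When 1 array was left out, Abca1 kept its call only without scrambled 4 or without DOR siRNA 4. Abcg1 kept its call only without scrambled 4, and Me1 only without scrambled 2. With any other array left out these calls were lost (limma adjusted p up to 0.10, 0.14 and 0.12).

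Msmo1, the C-4 methyl oxidase next to Nsdhl, differed by 0.13 ± 0.10 and the site-1 protease gene Mbtps1 by 0.20 ± 0.08 (limma adjusted p = 0.28). Mylip, another liver X receptor target, had a difference of 0.26 ± 0.08 (limma adjusted p = 0.14), and Nr1h3, a liver X receptor, 0.04 ± 0.09. Msmo1, Mbtps1, Mylip and Nr1h3 were named after their values were seen.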

How the data were processed

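Expression was measured on 8 Affymetrix arrays, and the authors deposited log2 values per probe set made with RMA, per the submitters' processing notes, which background-corrects, quantile-normalizes and summarises probes; a shift of all transcripts together would not show in them. The RMA version was not given in the sources used here. Per the labels, 25 ng of total RNA was amplified. Of 45101 probe sets 64 controls were left out. Probe sets were named by the platform annotation (34945 with 1 symbol, 932 with several, 9160 with none; 34741 matched RefSeq).

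Groups were compared with limma 3.58.1 (R 4.3.3; group alone, eBayes, two-sided, Benjamini-Hochberg over 45037 probe sets, call at an adjusted p under 0.05). Errors of differences are standard errors and intervals are 95% limma intervals. The fit with the group alone was tried on simulated data with independent noise for each probe set and array. That simulation did not cover the paired fit or effects of single arrays. After group means were subtracted, the correlation between arrays that share a number was 0.14 to 0.47 over the 4 pairs, and between arrays of unlike number -0.39 to 0.27. As every same-numbered correlation was over 0.1, the replicate numbers were taken as pairing the cultures, although only 5 of the 8 arrays correlated best with their own number and the labels do not state a shared batch. That choice was made on the same values that the paired fit uses. Alternatives were this replicate block, each array left out, means over probe sets, a filter on dim probe sets, cyclic loess, and a variance trend with robust prior. The genes given value by value were the called ones and up to 4 per branch with the smallest p, along with others in the order of the pathway. Members and lists were chosen with earlier results of these data known. Array number limits precision. Figures were drawn with matplotlib 3.10.9.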

Additional observations from a re-analysis of the deposited data

Results flagged for a closer look

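A sample far from the other 3 of its group was found in 10 of the 80 groups of 4 examined, where chance gives about 5% of groups. The groups share the same arrays and related genes and are not independent, so no excess is read from this count. Scrambled 4 was the far sample, and the highest, for Mvd (8.85, others 8.59 to 8.63), Idi1 (10.89, others 10.26 to 10.29), Lss (8.84, others 8.18 to 8.28) and Cyp51 (10.29, others 9.86 to 9.90). For Slc25a1 scrambled 4 was the lowest (8.62, others 8.67 to 8.68). DOR siRNA 2 was the far sample, and the lowest, for Nsdhl (10.93, others 11.28 to 11.32), Hsd17b7 (9.57, others 9.77 to 9.80) and Sc5d (9.01, others 9.41 to 9.42). DOR siRNA 4 was highest for Insig2 (10.60, others 10.45 to 10.47) and lowest for Acss2 (7.91, others 8.23 to 8.28).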

How the results depend on the processing

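With the replicate block the called members numbered 4 in the sterol branch and 3 in the fatty acid branch, in place of 1 and 1, and 2827 probe sets in place of 1452; it changed no calls of the 31 genes beyond those given with them, and among related genes it added Npc2 (limma adjusted p = 0.034). Leaving out 1 array moved the number called to between 0 and 5 (sterol), 0 and 3 (fatty acid), 2 and 6 (related genes) and 608 and 2310 (all probe sets, without scrambled 3 and without scrambled 4), and left the regulators at 0. By array left out, the sterol branch had 5 without scrambled 4, 1 without DOR siRNA 1 or 2 and 0 without any other array. The fatty acid branch had 3 without scrambled 4, 2 without DOR siRNA 2, 0 without scrambled 2 or 3 or DOR siRNA 1 or 4, and 1 otherwise. Medians ran from 0.10 to 0.23 (sterol), 0.28 to 0.41 (fatty acid) and 0.05 to 0.16 (regulators). The mean over the probe sets of a gene lowered the fatty acid median to 0.18, ended the call of Elovl6 and gave one to Fads2; the cause was not tested. Among single genes, Fdps, near 0, changed sign without scrambled 3 (-0.02), scrambled 4 (-0.00048), DOR siRNA 1 (-0.028) and DOR siRNA 4 (-0.02), and Acss2 did so in the mean over probe sets (-0.0038), none of them called. Of 481 values of single genes under an alternative, 431 kept direction and side of the threshold, 13 passed it, 32 fell short of it and 5 changed sign. The dim filter, the robust prior and cyclic loess changed no call among the 31 genes; cyclic loess ended that of Abcg1 (limma adjusted p = 0.055). With 4 arrays a group the standard error of the 31 differences had a median of 0.10 log2 units (0.07 to 0.18), which limits the size of difference that could be called.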
